A study of Mus musculus with 24 samples.

Results

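Id1, Id2 and Id3 encode 3 of the inhibitor of DNA binding proteins, and they are described here in the RNA of 2 mouse tumour cell lines exposed to the cytokine TNF and to RG6146, an inhibitor of BET bromodomains. The 3 genes are 3 of the 43629 genes in the deposited table of counts. They were chosen by their lower counts in TNF than in DMSO libraries, so every value of that contrast is given as a description and without a test. TNF in the presence of RG6146, set against RG6146 alone, uses libraries that the choice did not use, and it carries the main tests.

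E0771 is a line of breast adenocarcinoma cells, and MC38 is one of colon adenocarcinoma cells. Each line received for 3 h the solvent DMSO, 2.5 µM RG6146, 10 ng/mL TNF, or TNF and RG6146 at these doses (TNF+RG6146), with 3 libraries per group and 24 in all. The protocol text for the cells speaks of an ovalbumin-expressing MC38 derivative for all samples, whereas each sample is labelled with its own line, and the sample labels were followed. Nothing in the labels says whether the replicates came from separate cultures, so the p-values measure the spread between these libraries, which may be technical.

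Id proteins are helix-loop-helix proteins without a DNA-binding basic region. They pair with E proteins (Tcf3, Tcf4, Tcf12) and keep them from binding DNA, which holds back differentiation genes and cell cycle inhibitors such as Cdkn1a. BMP ligands, acting through their receptors and SMAD1, SMAD5 and SMAD4, are the best-known activators of Id transcription, and the RNAs are short-lived. In breast and colon tumour cells Id1 in particular is known for its links to growth and spread.

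In GENCODE vM21 on GRCm38, the 3 members are protein-coding genes that no other annotated gene overlaps. Id1 lies on the plus strand of chromosome 2 at 152736251 to 152737410, Id2 on the minus strand of chromosome 12 at 25093799 to 25097140, and Id3 on the plus strand of chromosome 4 at 136143497 to 136145755. The family resemblance is concentrated in the helix-loop-helix coding stretch. It is shown as the coding stretch in which the 3 genes are most alike. These are the 90 coding bases most alike among the 3 genes, 5′ to 3′ on the coding strand, with capitals at the bases that all 3 share:
Id1: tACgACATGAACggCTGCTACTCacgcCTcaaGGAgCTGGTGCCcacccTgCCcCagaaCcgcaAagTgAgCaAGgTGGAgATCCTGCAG
Id2: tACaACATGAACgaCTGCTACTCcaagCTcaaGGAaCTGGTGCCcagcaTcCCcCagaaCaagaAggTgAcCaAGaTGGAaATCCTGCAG
Id3: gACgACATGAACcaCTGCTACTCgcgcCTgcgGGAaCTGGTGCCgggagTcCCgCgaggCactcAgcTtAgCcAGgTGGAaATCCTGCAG
The windows lie in coding exons at chr2:152736518-152736607 (Id1), chr12:25095813-25095902 (Id2) and chr4:136144002-136144091 (Id3). All 3 genes share 56 of the 90 bases. Id1 and Id2 were identical at 81.1% of the positions, Id2 and Id3 at 70.0%, and Id1 and Id3 at 68.9%. Over the whole transcripts, the longest run shared by any pair was 19 bases, for Id2 and Id3, against reads of 75 bases. Reads of a member therefore had no full-length exact match in another member.

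Sequencing depth was 5392410 to 9132810 counts per library in E0771 and 5392810 to 9673120 in MC38. The treatment labels were checked on genes known to respond. Nfkbia, a target of NF-kB, was higher in every TNF-treated library than in the libraries without TNF of its line, and Hexim1, which BET inhibitors raise, was higher with RG6146 than with DMSO in both lines. A total of 2 libraries had a low share of mitochondrial ribosomal RNA, 0.376% (E0771 TNF replicate 2) and 0.609% (MC38 DMSO replicate 2). In the remaining 22 the share was 1.69% to 3.23%. The library MC38 TNF+RG6146 replicate 2 stood apart in another way: its 18 leukocyte markers summed to 1967 CPM (counts scaled to a common library total) against 5.75 to 34.2 in the other MC38 libraries, with S100a8 at 1197 CPM and the pan-leukocyte marker Ptprc at 25.4. Most of that sum was S100a8 and S100a9 (580 CPM). Not all 18 were high: Adgre1 and Cd79a were at 0, and Cd14 was at 0.782 CPM, against up to 3.87 in the other MC38 libraries. Epithelial markers were largely absent from both lines. Of 10 epithelial markers, E0771 libraries held Krt8 at 82.7 to 112 CPM while Epcam was at most 0.319, and the MC38 libraries other than that one summed to 0.484 to 1.36 CPM over the 10. The sums of 8 fibroblast markers were 74.7 to 135 CPM in E0771 and 374 to 715 in those MC38 libraries, and those of 8 endothelial markers 11.1 to 16.1 and 0.554 to 2.67. The leukocyte sum in E0771 was 116 to 204 CPM, mostly S100a8 (100.3 to 168).

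**Figure D1:**
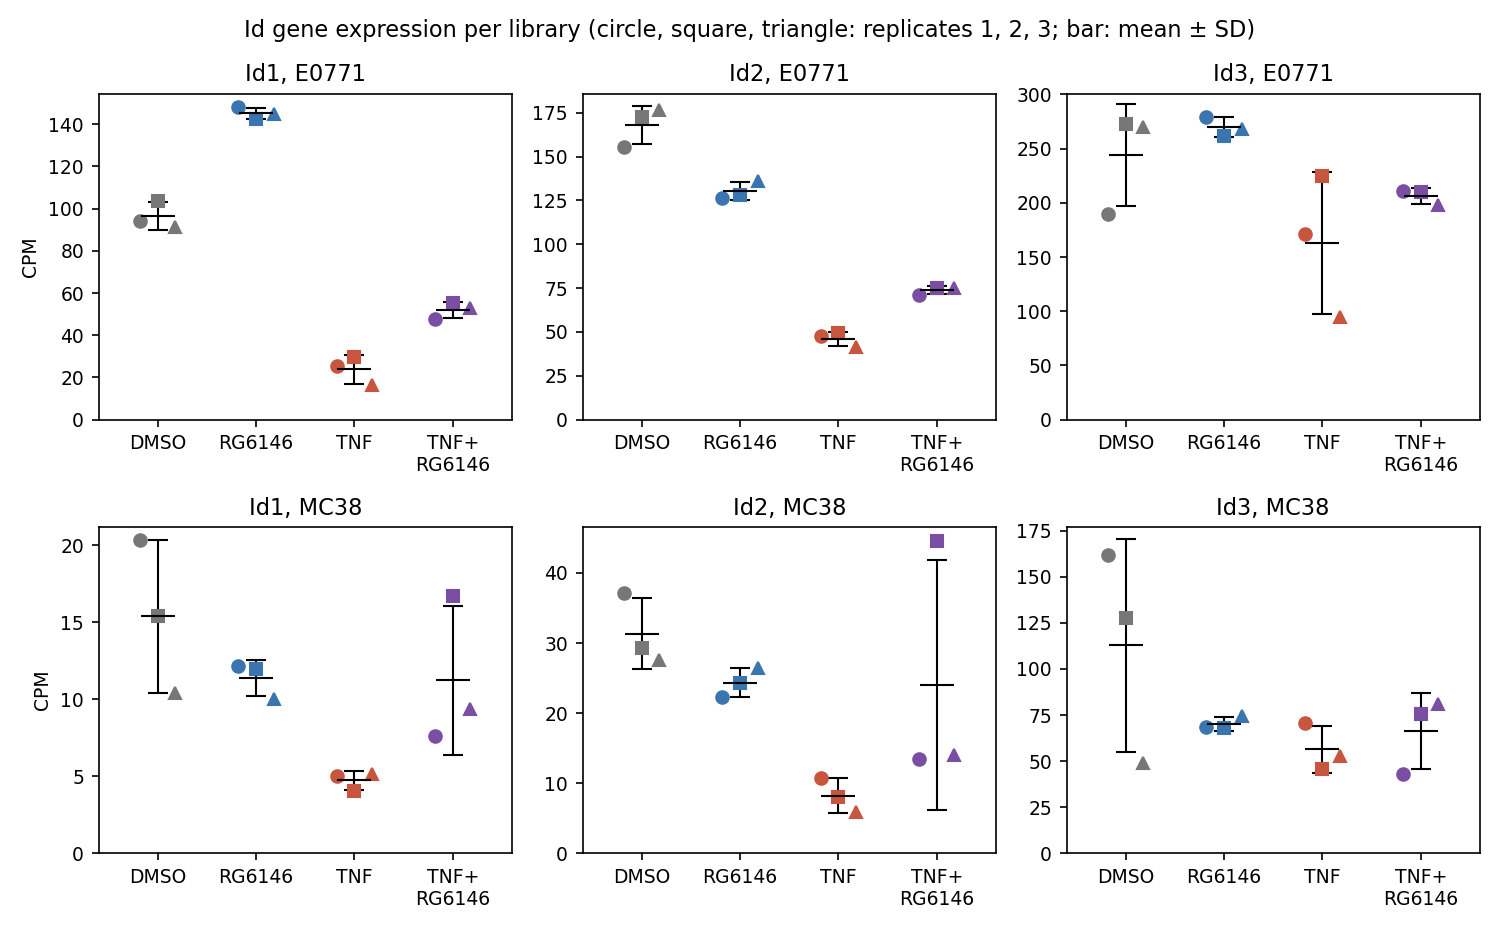
CPM (linear axes from 0) of Id1, Id2 and Id3 in each library, by treatment, for E0771 (top) and MC38 (bottom); bars are the mean ± SD of 3 libraries. Id1 and Id2 are lowest with TNF in both lines, Id3 overlaps between TNF and DMSO, and MC38 TNF+RG6146 replicate 2 (square) lies at 44.6 CPM for Id2, above its group.

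Id1 had the widest relative range of the 3 genes in E0771. Its level, as CPM after TMM scaling, was 94.2, 104 and 91.1 with DMSO, 148, 143 and 145 with RG6146, 25.5, 29.8 and 16.4 with TNF, and 47.6, 55.1 and 52.9 with TNF+RG6146. The order of the group means was RG6146 (145 ± 2.71, SD, n = 3), DMSO (96.4 ± 6.59), TNF+RG6146 (51.9 ± 3.87) and TNF (23.9 ± 6.83), and no neighbouring groups overlapped. How many of all genes have groups that lie apart was not counted, so such separation is a description here and below. TNF against DMSO, the contrast that the choice used, was -1.99 ± 0.16 on the log2 scale (SE).

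In MC38 Id1 was a low gene. It stood at 20.4, 15.4 and 10.4 CPM with DMSO, at 12.1, 11.96 and 10.02 with RG6146, at 4.99, 4.04 and 5.16 with TNF, and at 7.59, 16.7 and 9.39 with TNF+RG6146. The TNF values rest on 31 to 34 counts per library. The TNF libraries lay below every other MC38 library, whereas DMSO, RG6146 and TNF+RG6146 overlapped one another. The log2 difference of TNF from DMSO was -1.70 ± 0.31.

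Id2 followed the same path in E0771 with 1 exchange of places. Its level was 156, 172 and 176 CPM with DMSO, 126, 128 and 136 with RG6146, 47.4, 49.3 and 41.7 with TNF, and 71.4, 75.2 and 75.1 with TNF+RG6146. No neighbouring groups overlapped here either, but DMSO (168 ± 11.1) and not RG6146 (130 ± 5.19) came first. The log2 difference of TNF from DMSO was -1.86 ± 0.10.

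In MC38 Id2 stood at 37.1, 29.2 and 27.6 CPM with DMSO and at 22.3, 24.3 and 26.4 with RG6146, groups that did not overlap. With TNF it was at 10.8, 7.96 and 5.92 CPM, and with TNF+RG6146 at 13.4, 44.6 and 13.99. The 44.6 belongs to replicate 2, the library with the leukocyte markers, and it exceeded all other MC38 values of Id2. The log2 difference of TNF from DMSO was -1.93 ± 0.39.

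Id3 overlapped most between groups. In E0771 it stood at 190, 273 and 270 CPM with DMSO, 280, 262 and 268 with RG6146, 171, 224 and 94.3 with TNF, and 211, 210 and 198 with TNF+RG6146. In MC38 the values were 162, 128 and 48.9 with DMSO, 68.3, 67.9 and 74.6 with RG6146, 70.6, 45.9 and 52.6 with TNF, and 42.9, 75.8 and 80.9 with TNF+RG6146. TNF and DMSO overlapped in both lines, and in the order of group means every pair of neighbours overlapped too. The log2 difference of TNF from DMSO was -0.58 ± 0.22 in E0771 and -1.002 ± 0.34 in MC38, so the description of a gene lowered by TNF is borne out less clearly for Id3 than for Id1 and Id2. Of all genes tested, 2.32% (E0771) and 1.09% (MC38) were called in this contrast, which is given as background only. Id4, the remaining family gene, had 0 counts in all 24 libraries, which allows at most 0.556 CPM in the shallowest (3 counts, counting error only).

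The question whether TNF also lowered the genes while BET bromodomains were inhibited was addressed with the libraries that the choice had not used. In E0771, Id1 fell by 1.48 ± 0.15 (log2, SE) with TNF+RG6146 against RG6146 alone, and Id2 fell by 0.82 ± 0.09. The 3 libraries with TNF lay below the 3 without it for each gene, which is a description, as the share of all genes with such separation was not counted. The adjusted p-values were 5.70e-05 for Id1 and 0.000191 for Id2 (edgeR quasi-likelihood F test, Benjamini-Hochberg over 12541 genes). Id3 differed by -0.39 ± 0.22 and was not called (adjusted p = 0.959), although its groups did not overlap. That SE rests on a spread shared by all 12 libraries. The SD of Id3 was 3.36% of the mean with RG6146 and 3.48% with TNF+RG6146, but 19.2% with DMSO and 40.1% with TNF. Fitted with only the 6 libraries compared, Id3 differed by -0.39 ± 0.057 and was called (adjusted p = 2.43e-06, edgeR), where 534 genes were called. The Id3 call thus depends on which libraries share the fit.

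The E0771 calls stand against a small background. A total of 92 of the 12541 genes (0.734%) were called in either direction, and 7 (0.0558%) were called lower. Ranked by p, Id1 and Id2 were the first and second of those 7. The other 5 were Arrdc3 (-1.34), an arrestin-domain protein, Tmem127 (-0.66), Ier5l (-1.09), the zinc-finger gene Zfp260 (-0.69) and the predicted gene Gm22519 (-1.37). Leaving out each of the 6 libraries in turn kept the calls of Id1, Id2 and Arrdc3, while those of Tmem127, Ier5l, Zfp260 and Gm22519 were lost in 4 to 6 of the 6 cases. The log2 values were then -1.53 to -1.43 for Id1 and -0.84 to -0.78 for Id2. Without the 4 libraries that stand apart, of which 1 is from E0771 (TNF replicate 2, outside this contrast), 20 genes were called lower, and Id1 and Id2 were again the first and second. Because these are bulk RNA samples, fewer cells with the transcript and less of it per cell cannot be told apart.

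In MC38 no member was called in the same contrast with all libraries, by edgeR, DESeq2 or limma-voom, and 0 of the 3 had an unadjusted p under 0.05 by edgeR. Id1 differed by -0.01 ± 0.29, Id2 by -0.01 ± 0.36 and Id3 by -0.08 ± 0.34, each with an adjusted p of 0.9997 (edgeR, 13272 genes). An interval of 2 SE either side reaches from -0.59 to 0.57 for Id1 and from -0.74 to 0.72 for Id2. A total of 39 MC38 genes (0.294%) were called and 2 (0.0151%) were called lower, 9930012K11Rik (-1.18) and Pdlim2 (-0.73); leaving out 1 library lost the first call in 3 of 6 cases and the second in 5.

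One library decides the MC38 values. Without TNF+RG6146 replicate 2, Id2 differed by -0.83 ± 0.23 (adjusted p = 0.673, edgeR) and Id1 by -0.43 ± 0.28, so that Id2 sat at the E0771 value but was not called. When 6 libraries were left out, a choice made after seeing the data and described with the processing, Id2 differed by -0.82 ± 0.17 and was called (adjusted p = 0.0483). In the library in question S100a8, S100a9 (580 CPM), Lyz2 (56.3) and Laptm5 (43.7) were high together with Id2, and their part in the Id2 value was not tested.

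**Figure D2:**
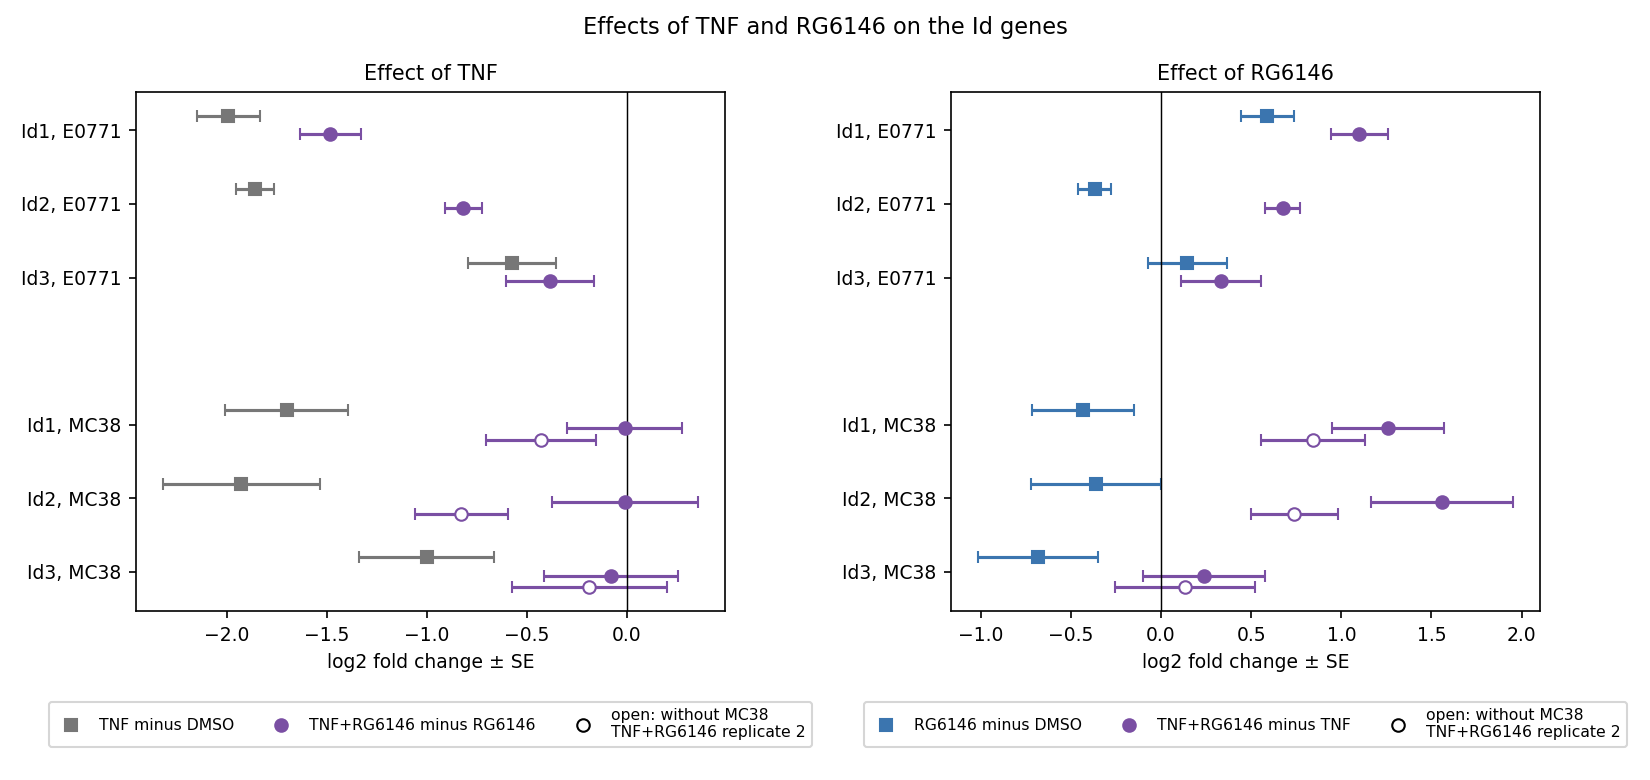
Log2 fold changes ± SE (x axis) of the 3 genes in each line, for TNF (left) and for RG6146 (right); open symbols leave out MC38 TNF+RG6146 replicate 2. In E0771 Id1 and Id2 lie at -1.48 and -0.82 for TNF under RG6146, and in MC38 Id2 moves from -0.01 to -0.83 when that library is left out.

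With RG6146 alone, Id1 and Id2 of E0771 stood on opposite sides of their DMSO levels. Id1 rose by 0.59 ± 0.15 (log2; adjusted p = 0.0180, edgeR), whereas Id2 differed by -0.37 ± 0.09 and Id3 by 0.14 ± 0.22. The DMSO libraries are among those in which the members were chosen for being high, which favours lower values with RG6146, so the lower Id2 is given as a description without a test. RG6146 moved many genes at 3 h, 10.8% of those tested in E0771, and the Id1 call is read against that share. The Id1 call was fragile: leaving out 1 library raised the adjusted p to as much as 0.0789 (edgeR), and the call was lost in 5 of 6 cases (all but DMSO replicate 2).

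In MC38 the log2 differences with RG6146 alone were -0.43 ± 0.28 for Id1, -0.36 ± 0.36 for Id2 and -0.68 ± 0.33 for Id3, again described without a test (8.27% of all genes were called). The Id3 value depends on DMSO replicate 3, which at 48.9 CPM was far below its 2 companions. Without that library Id3 differed by -1.03 ± 0.23.

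The ratio of Id1 to Id2 counts inside a library does not depend on how libraries are scaled, and it was added after the opposite differences had been seen. It is compared only between treatments. In E0771 it was 0.606, 0.602 and 0.517 with DMSO and 1.17, 1.11 and 1.06 with RG6146. It was 0.537, 0.603 and 0.393 with TNF and 0.667, 0.733 and 0.704 with TNF+RG6146. All RG6146 libraries lay above all DMSO libraries, and all TNF+RG6146 libraries above all TNF libraries.

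The log2 change of the E0771 ratio was 0.96 for RG6146 against DMSO, 0.48 for TNF+RG6146 against TNF, and -0.67 for TNF+RG6146 against RG6146. Each had an exact two-sided permutation p of 0.10, the smallest that 3 libraries against 3 allow, and 0.20 after adjustment over the 6 ratio tests. In MC38 the ratio ranged from 0.375 to 0.872 and all groups overlapped. The exact permutation p was 0.60 for TNF+RG6146 against RG6146.

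**Figure D3:**
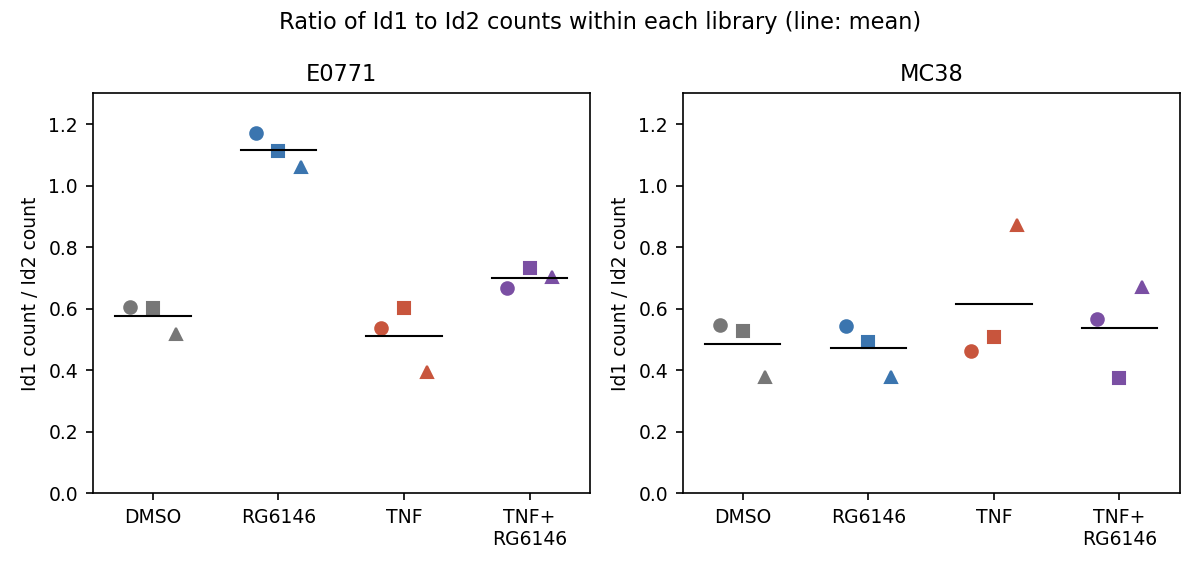
Ratio of Id1 to Id2 counts in each library (y axis, from 0) by treatment, for E0771 (left) and MC38 (right), with the mean of 3 libraries as a line. The 3 E0771 libraries with RG6146 alone sit between 1.06 and 1.17 and all other E0771 libraries at or below 0.733.

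With TNF present, Id1 and Id2 stood higher with RG6146 than without it in both lines. The members were chosen for low counts in these TNF libraries, which favours higher values with TNF+RG6146, so this contrast is a description without a test. In E0771, TNF+RG6146 exceeded TNF by 1.10 ± 0.16 for Id1 (log2, SE) and by 0.68 ± 0.10 for Id2. Id3 differed by 0.33 ± 0.22, by 0.63 ± 0.18 without TNF replicate 2 (1 of the 2 libraries low in mitochondrial ribosomal RNA) and by 0.058 ± 0.14 without TNF replicate 3. Of all genes tested, 16.6% were called in this contrast. With TNF+RG6146 Id1 stood at 47.6 to 55.1 CPM, below the 91.1 to 104 of DMSO, and Id2 at 71.4 to 75.2 against 156 to 176.

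In MC38 the same difference was 1.26 ± 0.31 for Id1, 1.56 ± 0.39 for Id2 and 0.24 ± 0.34 for Id3, where 11.3% of all genes were called. Without TNF+RG6146 replicate 2 it was 0.84 ± 0.29 for Id1 and 0.74 ± 0.24 for Id2.

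The interaction, which is the TNF effect under RG6146 less that without it, contains the contrast behind the choice and is described only. In E0771 it was 0.51 ± 0.22 for Id1, 1.04 ± 0.13 for Id2 and 0.19 ± 0.31 for Id3. In MC38 it was 1.69 ± 0.42, 1.92 ± 0.53 and 0.92 ± 0.48, and without TNF+RG6146 replicate 2 it was 1.27 for Id1 and 1.10 for Id2. A positive value means that the log2 difference made by TNF was less negative with RG6146 than without. The choice by lower counts with TNF than with DMSO favours positive values, so their sign is not a finding. Every point estimate was positive, but Id3 in E0771 turned to -0.084 without TNF replicate 3.

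All 3 genes stood higher in E0771 than in MC38, in a fit of all 24 libraries and 14058 genes. With DMSO the log2 difference was 2.64 ± 0.23 for Id1, 2.42 ± 0.27 for Id2 and 1.10 ± 0.31 for Id3. With RG6146 alone it was 3.62 ± 0.24, 2.37 ± 0.28 and 1.89 ± 0.31, and with TNF+RG6146 2.15 ± 0.24, 1.57 ± 0.28 and 1.601 ± 0.31. The DMSO libraries were used by the choice, so the values with DMSO are a description without a test. All values with RG6146 alone and with TNF+RG6146 were called (adjusted p of at most 0.000133, edgeR). Most tested genes differed between the lines, 58.7% of genes with DMSO, 61.3% with RG6146 and 58.8% with TNF+RG6146, so 3 of 3 is not far from the background.

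In the TNF effect under RG6146, no difference between the lines was called for a member by edgeR with all libraries and the filter on low counts. The TNF effect under RG6146 in E0771 less that in MC38 was -1.47 ± 0.32 for Id1 (adjusted p = 0.223, edgeR; 0.0356% of genes called), -0.80 ± 0.38 for Id2 and -0.29 ± 0.43 for Id3 (both 0.9999). Without MC38 TNF+RG6146 replicate 2 these became -1.05, 0.02 and -0.19. The effects of RG6146 use the DMSO or TNF libraries behind the choice, so their line differences are described without a test. Without TNF the effect of RG6146 differed by 0.98 ± 0.32 for Id1, -0.05 ± 0.38 for Id2 and 0.79 ± 0.43 for Id3 (background 0.384%). With TNF present it differed by -0.23 ± 0.35 for Id1, -0.96 ± 0.41 for Id2 and 0.03 ± 0.44 for Id3 (background 2.28%). The Id1 difference in the TNF effect was called by DESeq2 (adjusted p = 0.0150). It was also called by edgeR with no filter on low counts (adjusted p = 1.14e-05). The call thus depends on the tool and on the filter.

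The genes around the Id genes were taken from lists of the BMP pathway and of Id partners and targets. Of 12 BMP ligands and antagonists, 3 were expressed well enough to be tested in each line. In E0771 0 of the 3 were called in either TNF contrast by edgeR, DESeq2 or limma-voom, and 0 had an unadjusted p under 0.05. In MC38 1 of the 3 was called with TNF against DMSO, where 1.09% of all genes were. Bmp2, a ligand that activates Id transcription, rose there by 1.16 ± 0.19 (log2, adjusted p = 0.00537, edgeR), from 12.2 ± 1.55 to 27.2 ± 1.61 CPM (SD, n = 3). Without the 4 libraries that stand apart the rise was 1.02 and just missed the threshold (adjusted p = 0.05004). With TNF+RG6146 against RG6146 0 of the 3 were called in MC38 by any of the 3 tools, and 1, Bmp2, had an unadjusted p under 0.05. With RG6146 against DMSO, Bmp2 fell by 1.996 and its antagonist Grem1 fell by 1.74 in MC38, 2 of the 3, where 4.91% of all genes were called lower. In E0771 Bmp2 had at most 2 counts in a library. Whether Bmp2 has a part in the Id values was not tested.

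The transducers of the pathway did not pass the test with TNF. Of 13 BMP receptors and SMADs, 10 were tested in E0771 and 9 in MC38, and 0 were called with TNF against DMSO or with TNF+RG6146 against RG6146 by edgeR, DESeq2 or limma-voom. By edgeR 1 had an unadjusted p under 0.05 with TNF against DMSO in each line, Acvr2a in E0771 and Bmpr1a in MC38, and under RG6146 0 in E0771 and 1 in MC38 (Smad7). Their median log2 difference for TNF against DMSO was -0.03 in E0771, where that of all tested genes was -0.02, and 0.26 in MC38, where it was 0.02. Smad7, an inhibitory SMAD and itself a BMP target, differed by 0.04 ± 0.17 and 0.15 ± 0.27. With RG6146 against DMSO, 1 of the 10 was called in E0771, where 10.8% of all genes were: the receptor gene Acvr2b fell by 1.73. In MC38 0 of the 9 were called by the 3 tools and 0 had an unadjusted p under 0.05, where 8.27% of all genes were called.

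With TNF+RG6146 against TNF, 3 of the 10 BMP receptors and SMADs were called in E0771, against 16.6% of all genes. Acvr2b fell by 1.24, the receptor gene Acvr1 rose by 0.86 ± 0.25 (adjusted p = 0.0301, edgeR) and Smad7 rose by 0.54 ± 0.17 (0.0466). In MC38 2 of the 9 were called, against 11.3%: the receptor gene Bmpr2 fell by 0.46 (0.0412) and Smad1 fell by 0.58 (0.0261). Except for Acvr2b, these calls were lost in 3 to 5 of 6 cases with 1 library left out, and Smad7 was at its lowest, 0.35, without TNF replicate 2.

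Of 12 other genes that BMP-activated SMADs induce, 4 were tested in E0771, and 1, Hes1, was called with TNF against DMSO. A total of 3 of the 4 were lower with an unadjusted p under 0.05, Hes1, Dlx2 (-0.45 ± 0.20) and Runx2 (-0.38 ± 0.16), both of the latter transcription factors. Over all 12541 genes tested there, 1683 had an unadjusted p under 0.05 in either direction, and 2.32% were called. The median of the 4 was -0.42, where that of all tested genes was -0.02. Hes1, a repressor of the bHLH family, fell by 0.92 ± 0.18 (adjusted p = 0.0111), from 46.0 ± 5.99 to 24.03 ± 6.84 CPM. Without DMSO replicate 2 the difference was -0.82 and not called (adjusted p = 0.0772, edgeR). Under RG6146 Hes1 differed by -0.37 ± 0.19, the median was -0.19, and 0 of the 4 were called or had an unadjusted p under 0.05. In MC38 5 targets were tested and 0 were called in either TNF contrast by the 3 tools; 1 had an unadjusted p under 0.05 with TNF against DMSO (Msx1) and 1 under RG6146 (Smad7), with Hes1 at 0.40 ± 0.29 and the median of the 5 at 0.15 for TNF against DMSO. With RG6146 against DMSO Runx2 fell by 1.03 in E0771, 1 call of 4 where 10.8% of all genes were called.

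The E proteins that Id proteins bind did not pass the test with TNF. The log2 differences of Tcf3, Tcf4 and Tcf12 from DMSO were -0.18 ± 0.14, -0.22 ± 0.11 and -0.00 ± 0.09 in E0771, and -0.02 ± 0.14, 0.15 ± 0.13 and 0.24 ± 0.15 in MC38. Of the 22 E protein and other bHLH genes, 8 were tested in E0771 and 11 in MC38, and Hes1 in E0771 was the only call with TNF by edgeR. DESeq2 also called Hes6 in MC38 with TNF against DMSO. Against DMSO, RG6146 lowered 2 of the 8 in E0771 and 2 of the 11 in MC38, where 6.86% and 4.91% of all genes were called lower. These were Tcf4 (-0.65) and Bhlhe41 (-1.20) in E0771 and Hand2 (-1.24) and Bhlhe41 (-1.80, lost without RG6146 replicate 3, adjusted p = 0.0523, edgeR) in MC38.

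Among genes that E proteins activate and Id proteins hold down, Cdkn1a, which encodes the cell cycle inhibitor p21, rose in all 4 tests of TNF. With TNF against DMSO it rose by 0.84 ± 0.11 in E0771 (log2; adjusted p = 0.000421, edgeR) and by 1.81 ± 0.18 in MC38 (7.78e-05). With TNF+RG6146 against RG6146 it rose by 0.84 ± 0.11 (0.000765) and by 1.19 ± 0.17 (0.00508). The last of these calls was lost without RG6146 replicate 1 or replicate 2, with an adjusted p of up to 0.0527. In E0771 its level was 240 ± 14.3 CPM with DMSO and 429 ± 67.4 with TNF, and in MC38 16.3 ± 3.40 and 56.7 ± 7.08. Of all genes tested, 1.88% (E0771) and 1.02% (MC38) were called higher with TNF against DMSO. With TNF+RG6146 against RG6146 the shares were 0.678% and 0.279%. The other 4 genes of this list were not tested in E0771 and not called with TNF in MC38. With RG6146 against DMSO, Cdkn1a differed by 0.33 ± 0.11 in E0771, not called (adjusted p = 0.0783, edgeR), but called without TNF replicate 2 (0.00710). In MC38 RG6146 called 2 of the 5, Cdkn1a higher and Thbs1 lower, where 8.27% of all genes were called. Without the 4 libraries that stand apart, Cdkn1a rose there by 0.71 ± 0.15 (adjusted p = 0.0143, edgeR). Whether the Id genes have a part in the rise of Cdkn1a was not tested.

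Of 10 further regulators of Id transcription, 8 were tested in E0771 and 9 in MC38. Atf3, a stress-induced factor known to repress Id1 in epithelial cells, rose with TNF in E0771 by 1.18 ± 0.17 (adjusted p = 0.000759, edgeR) and by 1.25 ± 0.15 under RG6146 (0.000240). It also rose with RG6146 alone, by 1.24 ± 0.17 (0.000332), where Id1 was higher. Creb1 rose there too, by 0.58 ± 0.11 (adjusted p = 0.00376, edgeR), so that 2 of the 8 were called where 10.8% of all genes were. Whether Atf3 or Creb1 has a part in the Id1 values was not tested. The level of Atf3 was 6.04 ± 0.841 CPM with DMSO, 14.4 ± 1.20 with RG6146, 13.9 ± 2.102 with TNF and 34.4 ± 2.64 with both. In MC38 Atf3 was at most 4.74 CPM, and its difference was 2.49 ± 0.64 with TNF (0.0907) and 2.28 ± 0.49 under RG6146 (0.0956), not called. Egr1, an immediate early factor, rose by 1.21 ± 0.20 with TNF (0.00604) and by 1.55 ± 0.20 with RG6146 (0.000494). Under RG6146 TNF gave 0.95 ± 0.20 for Egr1, not called by edgeR (0.0764). DESeq2 called both Atf3 and Egr1 in MC38 under RG6146. Without the 4 libraries that stand apart, edgeR called Egr1 there (1.07, adjusted p = 0.00838) but not Atf3 (0.172).

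**Figure D4:**
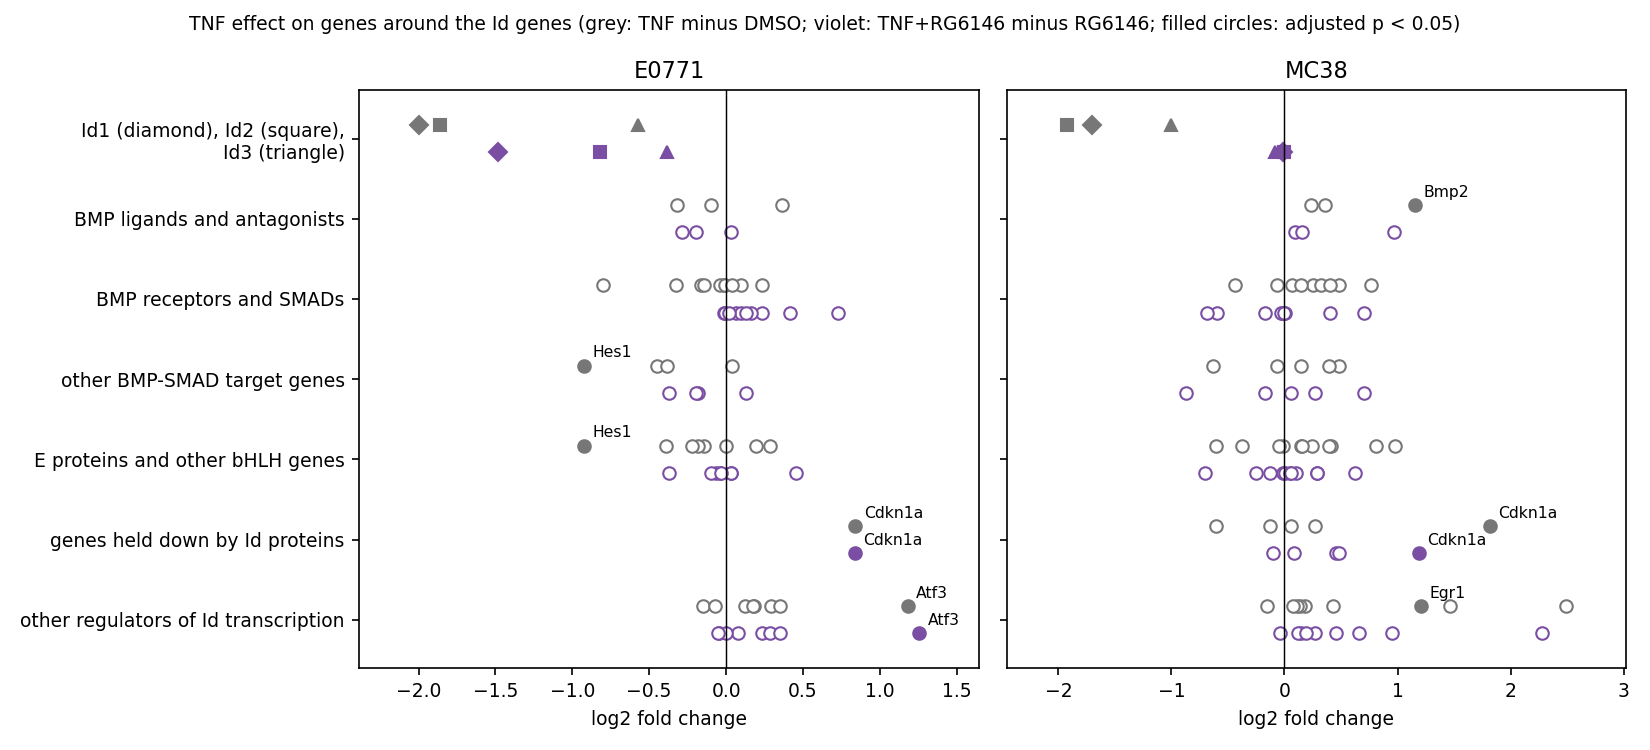
Log2 fold changes (x axis) for TNF against DMSO (grey) and TNF+RG6146 against RG6146 (violet), per gene list, in E0771 (left) and MC38 (right); filled circles are genes called at an adjusted p under 0.05, and the top row holds the Id genes, which carry no call here. Cdkn1a lies to the right in all 4 comparisons, between 0.84 and 1.81, and the BMP receptors and SMADs hold no called gene.

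Id1 and Id2 moved together over the 12 libraries of a line. Pearson's r of their log2 CPM was 0.913 in E0771 and 0.928 in MC38. Id1 and Id3 gave 0.823 and 0.714, and Id2 and Id3 0.720 and 0.580. These are descriptions: the libraries share 4 treatments, 1 of which chose the genes. Once group means were taken out, r for Id1 and Id2 was 0.749 and 0.723, and for Id2 and Id3 0.864 and 0.398. In MC38 without the libraries that stand apart, the value for Id1 and Id2 within groups was 0.311.

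Of 10263 other genes ranked by their likeness to the mean profile of the 3, taking the lower of the r values of the lines (12 libraries each), 6 came first. Tmem164 had r of 0.784 in E0771 and 0.792 in MC38. Sertad3 had 0.946 and 0.721, Dolpp1 0.780 and 0.717, 1810043G02Rik 0.753 and 0.707, Ier5l 0.909 and 0.690, and Pcsk7 0.762 and 0.680. With rank correlation 4 of the 6 were again among the first 6, and likewise without the 4 libraries that stand apart. In E0771 Sertad3 stood at 49.8 ± 6.88 CPM with DMSO and at 24.2 ± 11.01 with TNF. Ier5l is also among the 7 genes that fell with TNF+RG6146 against RG6146 in E0771 (-1.09 ± 0.22, adjusted p = 0.0264, edgeR), and in MC38 it differed by -0.67 ± 0.27 there (adjusted p = 0.888). The E0771 call was lost in 6 of 6 cases with 1 library left out. The likeness ranking used these same libraries, so the fall of Ier5l is not separate support.

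Sequence features of the 3 genes were examined because their RNAs were lower together. The 3′ untranslated region of Id2 holds ATTTA, the core of AU-rich elements that speed RNA decay, 3 times, and those of Id1 and Id3 hold none, while 63.2% of 20072 mouse genes have at least 1. RefSeq promoter windows of 300 bases matched 2 of the 3 genes, Id2 and Id3 (GRCm38.p6). GGCGCC, the GC-rich site that SMAD1 and SMAD5 are known to bind, occurs once in the Id2 window and not in that of Id3, and 11.9% of 32851 promoters hold it. The part of the Id2 window with this site, 89 bases at chr12:25096254-25096342 on the minus strand, lies in an intron of the longer Id2 transcript and upstream of the shorter one. It is shown 5′ to 3′ with the site in capitals, which starts 231 bases before the start site:
Id2 promoter: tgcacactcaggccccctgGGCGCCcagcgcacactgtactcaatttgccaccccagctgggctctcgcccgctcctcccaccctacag
Searched on both strands with overlaps allowed, CCAAT occurs 3 times in the Id2 window and not in that of Id3 (37.4% of promoters hold it), and CAGAC, a SMAD-binding box, occurs 2 times in the Id3 window and not in that of Id2 (49.6%). Neither window holds TATAAA (13.6%) or a match to the NF-kB consensus (8.5%). No feature searched was common to both windows. These are matches of letters, and binding was not measured.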

How the data were processed

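The members and gene lists were chosen with earlier results of these data known. The analysis used 1 table of raw counts deposited by the authors (24 libraries, QuantSeq 3′ kit per the labels' protocols). Per the submitters' processing notes, bcl2fastq 2.17.1.14, cutadapt 1.14, HISAT2 2.1.0, mm10 and featureCounts of Subread 1.5.2 were used; the sources used here do not give the strand setting or annotation. Each line was fitted with edgeR 4.0.16 (R 4.3.3): filterByExpr, TMM, 12 libraries in 4 groups, quasi-likelihood F tests, two-sided, Benjamini-Hochberg adjustment over all tested genes, calls at an adjusted p under 0.05. SE is the absolute log2 fold change over the root of F, and CPM used TMM scaling. Scripts were tested on simulated data. Named genes were the members, Id4, Nfkbia, Hexim1, called members of 6 lists (up to 4 each) and the 6 most alike genes (mean count of at least 20); E proteins, Smad7, other called-lower genes and further list values were named after their values were seen. Alternatives were DESeq2 1.42.0, limma-voom (limma 3.58.1), 2 other scalings, no filter, only the compared libraries, a replicate block, and leaving out each library, 4 libraries that stand apart (the 3 named in the text and MC38 TNF replicate 1), or 6 (with E0771 TNF replicate 3 and MC38 DMSO replicate 3, chosen after seeing the data). For list genes and other called-lower genes, leaving out libraries was also added after seeing the data. No 2 libraries were identical.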

Additional observations from a re-analysis of the deposited data

How the results depend on the processing

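The values of the members were followed over all comparisons that do not contain TNF against DMSO. With 1 library left out, 236 of 270 kept their direction and their side of the threshold, and under other settings 260 of 288. These counts include RG6146 against DMSO, TNF+RG6146 against TNF and the line differences that are described above without a test. The cause of the changes was not tested except where libraries were left out. In E0771 the TNF effect on Id1 and Id2 under RG6146 kept its call in every setting. Fitting only the 6 libraries compared gave -0.39 (called) for Id3 in E0771 under RG6146, 0.014 for Id1 and 0.023 for Id2 in MC38, and 1.59 for Id2 in MC38 with TNF+RG6146 against TNF. With library totals as scaling, Id2 in MC38 under RG6146 was 0.0053, and its line difference in the RG6146 effect without TNF 0.012. limma-voom gave 1.38 for Id2 in MC38 with TNF+RG6146 against TNF.

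With no filter on low counts, Id3 differed by -0.67 in MC38 with RG6146 against DMSO. The line difference in the TNF effect on Id1 under RG6146 was then -1.45 and was called, as was the DESeq2 value of -1.46. Line differences in the RG6146 effect, described only, were 1.02 (Id1) and 0.83 (Id3) without TNF, and -0.90 (Id2) with TNF. Without the 4 libraries that stand apart, TNF+RG6146 against TNF gave 0.63 for Id3 in E0771 and 0.88 for Id1 in MC38, and the line differences were 0.016 for the TNF effect on Id2 under RG6146 and 0.37 for the RG6146 effect on Id1 with TNF. Without 6 libraries, TNF under RG6146 gave -0.38 for Id3 in E0771 and -0.82 for Id2 in MC38, and RG6146 against DMSO in MC38 gave -0.79 for Id1 and -1.15 for Id3. The line differences were then 0.22 for the TNF effect on Id1 without RG6146, and under RG6146 -1.04 for Id1 (called) and 0.015 for Id2. For RG6146 without TNF, described only, they were 1.38 (Id1), 0.20 (Id2) and 1.31 (Id3), and with TNF 0.13 (Id1) and -0.053 (Id3).

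Leaving out 1 library at a time gave these ranges. In E0771, RG6146 against DMSO ran from 0.55 to 0.64 for Id1, -0.42 to -0.33 for Id2 and -0.0094 to 0.23 for Id3, TNF+RG6146 against TNF from 0.058 to 0.63 for Id3, and the interaction from -0.084 to 0.49 for Id3. In MC38, TNF under RG6146 ran from -0.43 to 0.21 for Id1, -0.83 to 0.29 for Id2 and -0.24 to 0.16 for Id3, RG6146 against DMSO from -1.03 to -0.34 for Id3, and TNF+RG6146 against TNF from 0.84 to 1.49 for Id1 and 0.74 to 1.85 for Id2. Line differences in the TNF effect under RG6146 ran from -1.69 to -1.05 for Id1 and -1.09 to 0.016 for Id2, and without RG6146 from -0.069 to 0.32 for Id2. Those in the RG6146 effect ran from -0.17 to 0.049 for Id2 without TNF, and with TNF from -0.45 to 0.19 for Id1 and -0.24 to 0.35 for Id3.

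The count of all genes called moved more than the members did. For TNF+RG6146 against RG6146 it ran from 57 to 534 in E0771 (92 in the tests above) and from 18 to 355 in MC38 (39), for TNF against DMSO from 110 to 622 and from 69 to 574, for RG6146 against DMSO from 728 to 3443 and from 479 to 1358, and for TNF+RG6146 against TNF from 881 to 2898 and from 751 to 2394. For the line differences it ran from 5 to 208 (TNF effect under RG6146), 24 to 963 (RG6146 effect) and 65 to 1101 (RG6146 effect with TNF). Replicate numbers did not pair the libraries: same-numbered libraries correlated at -0.293 to 0.237 in their deviations from group means. With a replicate block, TNF under RG6146 in E0771 was -1.49 for Id1 and -0.82 for Id2, in MC38 -0.03 and -0.12, and no call of a member changed. Depth limits Id1 in MC38, where the TNF libraries held 31 to 34 counts.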
